A study of Mus musculus with 12 samples.

Results

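A set of 10 genes of purinergic signalling and adenosine turnover were followed in hippocampal astrocytes: Adora1 and Adora2b, which encode adenosine receptors; P2ry1, P2ry12 and P2ry14, which encode P2Y receptors; P2rx4 and P2rx7, which encode P2X channels; Entpd2 and Nt5e, which encode enzymes that break down nucleotides outside the cell; and Adk, which encodes adenosine kinase. They were taken by symbol, and each was found once among the 56941 rows of the deposited table, which lists all 10 as protein coding. Their coordinates below are those of that table, whose genome build is not settled and differs from that of the promoter sequences. Messenger RNA was sequenced in 12 libraries of astrocytes sorted from the hippocampus of naive adult males by fluorescent labelling of ACSA-2, a surface protein of astrocytes. The Ctrl group, units A1, A2 and A8, carried a floxed Tnfrsf1b gene (Tnfrsf1bfl/fl). The cKO group, units A4, A9 and A10, carried the same floxed gene and GfapcreERT2, a tamoxifen-inducible Cre recombinase driven by the Gfap promoter. Tnfrsf1b encodes the TNF receptor TNFR2, and the comparison addresses what its ablation in astrocytes does to their transcripts. Each unit had 2 libraries, S1 and S2, which were averaged and counted as 1, so that n is 3 units per genotype. The labels define neither the A number nor S, give no age beyond adult, and do not say that the A numbers are separate animals, so the p-values measure only the spread between these units.

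ATP and other nucleotides released by cells act on P2X receptors, which are cation channels, and on P2Y receptors, which couple to G proteins. Enzymes at the cell surface cut ATP stepwise to ADP, AMP and adenosine, and adenosine acts on its own G protein-coupled receptors. In the brain, astrocytes clear adenosine mainly by taking it up and phosphorylating it with adenosine kinase, and adenosine restrains synaptic transmission in the hippocampus.

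The sequences just upstream of 4 of the genes are shown because these genes had the largest positive differences among the receptors (P2ry12, P2ry1, Adora2b) or the clearest separation of units among the enzymes (Entpd2), and because each has a single listed start. Each run is the 250 bases before the RefSeq start in GRCm38.p6, written 5′ to 3′ on the gene's strand. P2ry12 lies at chr3:59262986-59263235 on the minus strand, P2ry1 at chr3:61002535-61002784 on the plus strand, Adora2b at chr11:62248734-62248983 on the plus strand and Entpd2 at chr2:25395624-25395873 on the plus strand. Capitals mark matches to the motifs searched, which are given after the sequences.
P2ry12: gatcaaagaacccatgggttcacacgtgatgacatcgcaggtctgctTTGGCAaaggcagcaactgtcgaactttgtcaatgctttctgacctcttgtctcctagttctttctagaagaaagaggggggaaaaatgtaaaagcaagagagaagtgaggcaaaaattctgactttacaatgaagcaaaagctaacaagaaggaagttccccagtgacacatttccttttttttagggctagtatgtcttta
P2ry1: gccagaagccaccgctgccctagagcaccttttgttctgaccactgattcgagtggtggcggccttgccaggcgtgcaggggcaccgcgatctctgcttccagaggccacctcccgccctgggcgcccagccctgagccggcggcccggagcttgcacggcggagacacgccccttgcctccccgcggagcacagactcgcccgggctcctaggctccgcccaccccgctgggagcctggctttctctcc
Adora2b: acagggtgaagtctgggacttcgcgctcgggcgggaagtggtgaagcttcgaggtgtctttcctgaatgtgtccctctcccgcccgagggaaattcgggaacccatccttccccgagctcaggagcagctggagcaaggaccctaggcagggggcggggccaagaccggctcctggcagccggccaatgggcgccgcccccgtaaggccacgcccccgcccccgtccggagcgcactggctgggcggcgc
Entpd2: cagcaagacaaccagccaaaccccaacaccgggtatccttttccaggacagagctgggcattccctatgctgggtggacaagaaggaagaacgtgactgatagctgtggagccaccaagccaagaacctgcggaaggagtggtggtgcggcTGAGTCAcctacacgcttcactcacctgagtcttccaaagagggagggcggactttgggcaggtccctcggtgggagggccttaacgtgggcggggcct

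Both strands were searched for 6 motifs, and the share of all 32851 RefSeq promoter windows of this length holding each one was counted. These were the TATA box TATAAA (12.4% of windows), the AP-1 site TGANTCA (6.75%), the cyclic AMP response element TGACGTCA (1.55%), the ETS/PU.1 core GAGGAA (23.3%), the NFI site TTGGCA (12.3%) and the NF-kB site (3.90%). P2ry12 held 1 match, to the NFI site, beginning 203 bases before the start. Entpd2 held 1 match, to the AP-1 site, starting 99 bases before the start. The windows of P2ry1 and Adora2b held 0 matches, which says only that these letters are not in these windows. The windows also differed in base composition. P2ry12 had 3 CpG dinucleotides and 41.6% G and C, whereas P2ry1 had 20 and 70.8%, Adora2b 22 and 69.6%, and Entpd2 9 and 59.2%. Over all windows the median was 6 CpG dinucleotides and 52.4% G and C.

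The ablated gene did not check the labels. Tnfrsf1b was listed at 0 in 9 of the 12 libraries and had over 3 reads in 3, which were A1 S1 of Ctrl (0.0551 FPKM) and both libraries of A4, labelled cKO (0.119 and 0.163 FPKM). The groups below are therefore the libraries labelled Ctrl and labelled cKO. Recovered depth was 17311872 to 35323322 reads per library. On the first principal component A8 of Ctrl (75.6) stood apart from A1 and A2 (-37.9 and -43.3). It also stood apart from the cKO units A4, A9 and A10 (-3.8, 17.7 and -8.31). Markers of astrocytes were abundant in every unit (their sum was 3470 to 4744 FPKM over 12 genes, with Aldh1l1 and Slc1a3 above 0 in every library). The summed oligodendrocyte markers were 1083 to 2339 FPKM in Ctrl and 310 to 744 FPKM in cKO, without overlap. The same held for the summed oligodendrocyte precursor markers (127 to 165 against 77.4 to 106 FPKM). It held narrowly for the summed neuronal markers (8.23 to 10.8 against 3.99 to 8.10 FPKM). Of the single precursor markers only Olig1 and Sox10 did not overlap. Pdgfra was 0.258 to 1.63 FPKM in Ctrl and 0.165 to 1.29 FPKM in cKO. Of the single neuronal markers only Slc17a7 did not overlap. What part these differences had in the results was not tested. In bulk RNA of this kind, fewer cells of a type and less RNA per cell cannot be told apart.

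**Figure D1:**
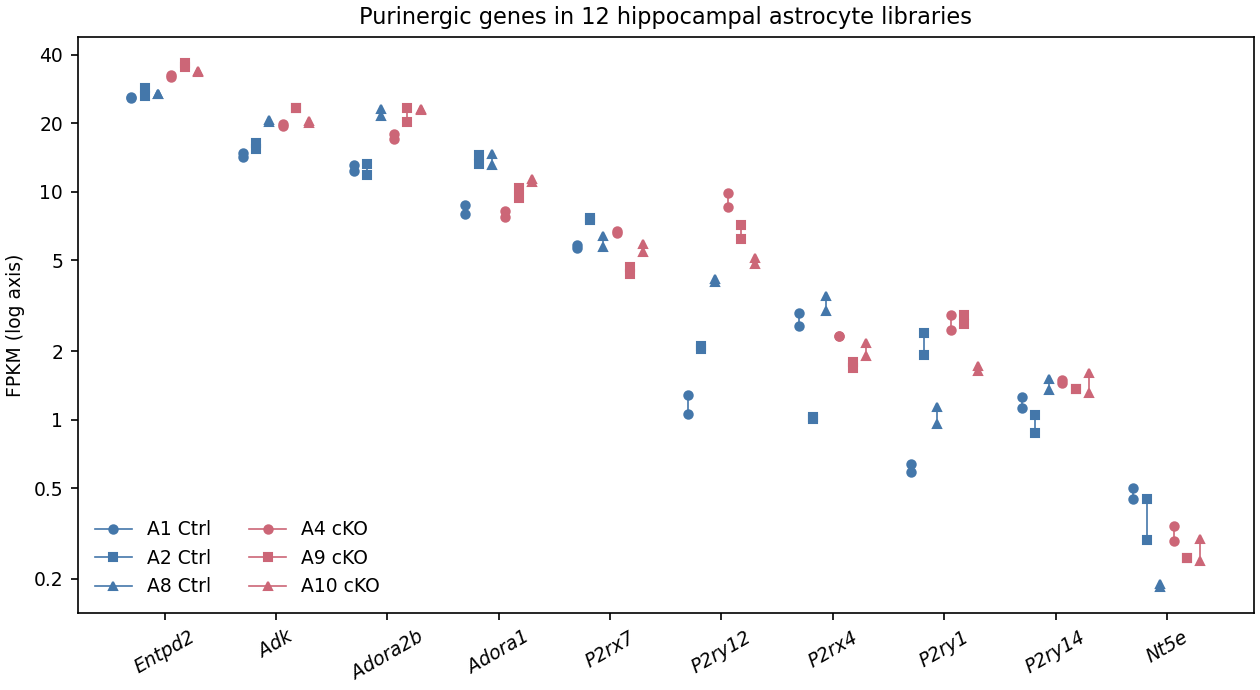
FPKM of the 10 genes (log axis) in each of the 12 libraries, ordered by mean level in Ctrl; blue is Ctrl, red is cKO, marker shape gives the A number, and a line joins S1 and S2 of a unit. The red P2ry12 and Entpd2 points all lie above the blue ones, while the other 8 genes overlap when S1 and S2 are averaged.

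Levels are in FPKM, which are scaled by the gene length in the deposited table. The order below takes that length as given, and some of the genes share exon bases with others, as described with each gene. In Ctrl the order of the means was Entpd2, Adk, Adora2b, Adora1, P2rx7, P2ry12, P2rx4, P2ry1, P2ry14 and Nt5e, from 26.8 down to 0.344 FPKM. Entpd2 lay above Adk, Adora1 above P2rx7, P2rx7 above P2ry12 and P2ry14 above Nt5e in 3 of 3 Ctrl units, whereas the other neighbours in the order changed places in at least 1 unit. In cKO the order ran from 34.0 FPKM (Entpd2) to 0.278 FPKM (Nt5e). P2ry12 stood above P2rx7 there in 2 of 3 units, and P2ry1 above P2rx4 in 2 of 3 units, so neither new place in the order exceeded the spread between units. Adora2b lay above Adora1 in 3 of 3 cKO units and in 2 of 3 Ctrl units.

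Of the 10 genes, 9 reached the minimum mean of 1 FPKM and were tested with limma on log2(FPKM + 1), the scale of all log2 fold changes here, which understates the change of low genes. None of the 9 was kept by the level of the cKO group alone. The number with an adjusted p under 0.05 was 0 of 9, as it was for all 17540 genes tested (0%). A model of the 12 libraries that took A numbers as a random effect called 112 genes, 0 of these 9 among them. At an unadjusted p under 0.05 in limma, 2 were higher in cKO, P2ry12 and Entpd2, and 0 were lower, where 2.98% of all tested genes were higher and 4.71% were lower. The same 2 had all 3 cKO units above all 3 Ctrl units and 0 had them below, where 5.76% and 7.22% of all tested genes did. Of the 9, 6 had a positive difference and 3 a negative one, with a median log2 fold change of 0.31 against -0.01 over all genes tested. With 3 units against 3, the two-sided exact permutation test can give no p below 0.1.

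**Figure D2:**
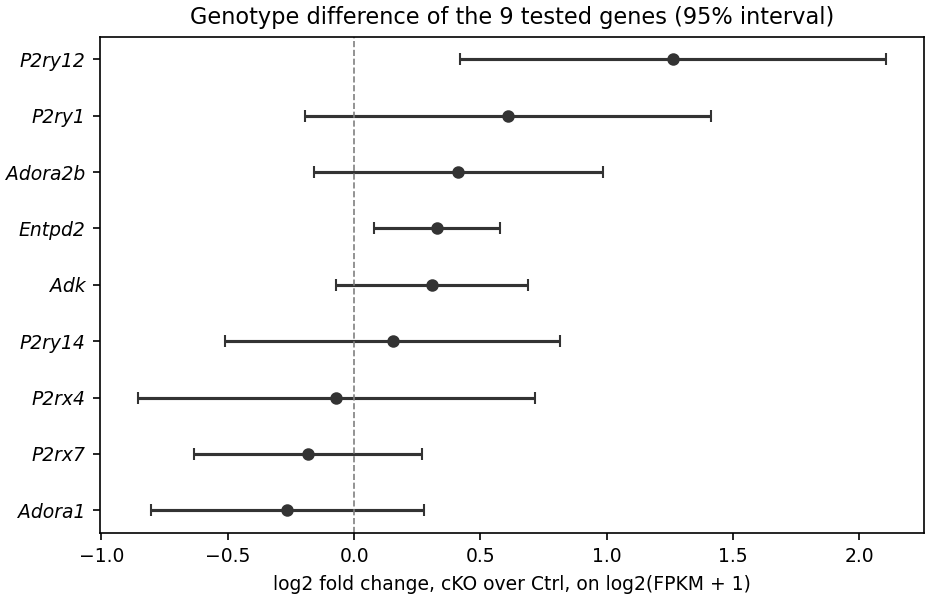
Log2 fold change of cKO over Ctrl on log2(FPKM + 1) for the 9 tested genes, with the 95% interval of the limma fit (n = 3 units per genotype). The intervals of P2ry12 (0.42 to 2.11) and Entpd2 (0.08 to 0.58) lie above 0 before adjustment, and the other 7 cross 0.

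P2ry12 (ENSMUSG00000036353, chromosome 3, 59123693 to 59170292, minus strand) encodes a receptor for ADP that microglia are known to use to sense injury and to direct their processes, and it is widely used as a microglial marker. Its level was 1.17, 2.08 and 4.08 FPKM in Ctrl units A1, A2 and A8, and 9.22, 6.70 and 4.96 FPKM in cKO units A4, A9 and A10. The lowest cKO library (4.83 FPKM, A10 S1) lay above the highest Ctrl library (4.15 FPKM, A8 S1), so neither units nor libraries overlapped, but within each group the units spanned a wide range. Ctrl unit A8 (4.08 FPKM) lay nearer to A10 of cKO (4.96 FPKM) than to A2 (2.08 FPKM). The lowest units, A1 and A2, were also set apart by the immediate-early and other marker sums given below for Adora2b. The part of those sums in the P2ry12 values was not tested. The means were 2.44 ± 1.49 (Ctrl) and 6.96 ± 2.14 FPKM (cKO; SD, n = 3 each), a ratio of 2.85. The log2 fold change was 1.26 (SE 0.36), with a limma unadjusted p of 0.00951 and adjusted p of 0.433, and the exact permutation p was 0.1. Across libraries the gene had 62 to 772 reads.

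Because P2ry12 marks microglia, the other microglial markers are given beside it. The summed level of 12 microglial genes was 4.59, 5.73 and 0.121 FPKM in A1, A2 and A8, and 12.2, 3.21 and 2.28 FPKM in A4, A9 and A10. These groups overlapped. In A8, 11 of the 12 markers were at 0, and in A2 and A10, 5 were at 0 in each. The defining markers Cx3cr1 and Tmem119 were at 0 in A2, A8 and A10, where P2ry12 was 2.08, 4.08 and 4.96 FPKM. In A4, where P2ry12 was highest, Cx3cr1 was 1.28 FPKM and Tmem119 was 0.294 FPKM, both the highest of the 6 units, and 1 of the 12 markers was at 0. Without A4 the P2ry12 log2 fold change was 1.07. The part of microglial RNA in the difference was not tested.

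**Figure D3:**
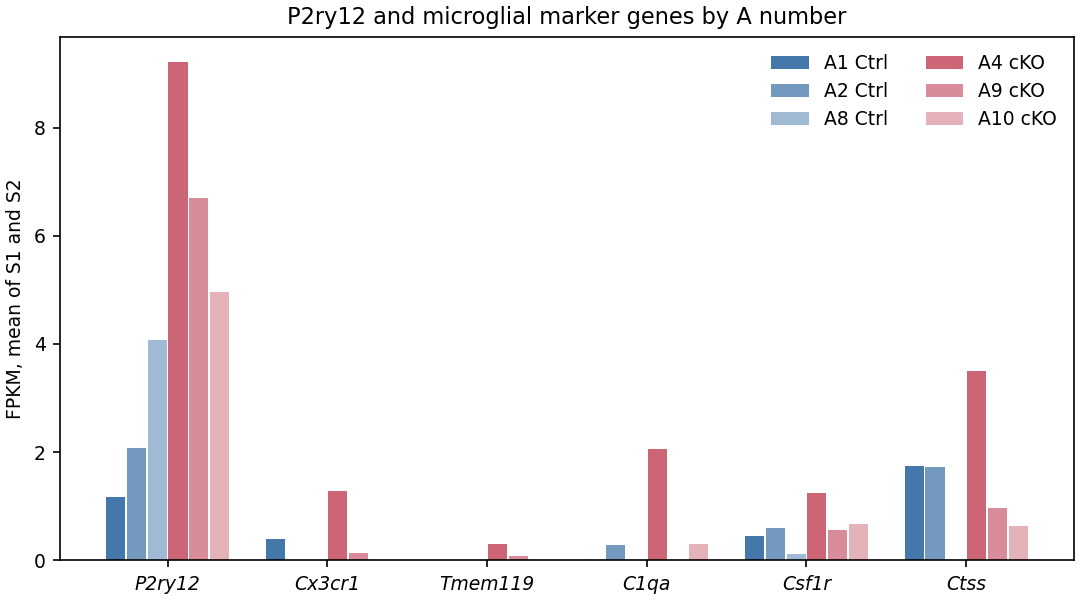
FPKM (mean of S1 and S2) of P2ry12 and 5 microglial marker genes in each unit, with Ctrl in blue shades and cKO in red shades. P2ry12 bars run from 1.17 to 9.22 FPKM, while Cx3cr1, Tmem119, C1qa and Ctss have no bar for A8 and reach at most 3.51 FPKM (Ctss in A4).

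P2ry14 (ENSMUSG00000036381, chromosome 3, 59021276 to 59061039, minus strand), which encodes a receptor for UDP-sugars, lies 62653 bases from P2ry12 on chromosome 3 in the deposited coordinates. Its level was 1.20, 0.962 and 1.43 FPKM in A1, A2 and A8, and 1.48, 1.37 and 1.45 FPKM in A4, A9 and A10. The cKO units lay close together and A8 fell among them. The log2 fold change was 0.15 (SE 0.28, 95% interval -0.51 to 0.81, limma adjusted p = 0.958), and 0.07 without A2 and 0.23 without A8. Its cKO units lay above the Ctrl units without A8, without A9 and under upper-quartile scaling. Whether it differed from P2ry12 in its response was not tested. Both genes lie inside the span of Med12l on the other strand, with 9 exon bases of P2ry12 shared and 0 of P2ry14; Med12l had means of 5.79 ± 2.003 (Ctrl) and 5.46 ± 0.498 FPKM (cKO; SD, n = 3 each).

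P2ry1 (ENSMUSG00000027765, chromosome 3, 60910216 to 60916403, plus strand) encodes an ADP receptor coupled to calcium release, and is known in astrocytes for its part in calcium signalling. Its level was 0.614, 2.16 and 1.05 FPKM in A1, A2 and A8, and 2.68, 2.76 and 1.68 FPKM in A4, A9 and A10. A2 of Ctrl lay above A10 of cKO, so the groups overlapped, and without A2 or without A10 they did not. The means were 1.27 ± 0.795 and 2.37 ± 0.602 FPKM (SD, n = 3 each), with a log2 fold change of 0.61 (SE 0.34, 95% interval -0.19 to 1.41, limma adjusted p = 0.764). The exact permutation p was 0.2, and the log2 fold change was 0.39 without A1. In the deposited coordinates 992 bases of its exons (23.1%) are shared with the lncRNA Gm37035 on the other strand, whose level had means of 0.539 ± 0.169 (Ctrl) and 1.08 ± 0.668 FPKM (cKO; SD, n = 3 each). Whether strand was used in counting is not given in the sources used here, so reads of the 2 genes cannot be told apart there. The library with the fewest P2ry1 reads had 52.

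Adora1 (ENSMUSG00000042429, chromosome 1, 134126963 to 134163169, minus strand) and Adora2b (ENSMUSG00000018500, chromosome 11, 62139810 to 62157279, plus strand) encode adenosine receptors that couple to opposite G proteins, the former inhibiting and the latter stimulating adenylyl cyclase. Adora2b was 12.7, 12.5 and 22.3 FPKM in A1, A2 and A8, and 17.5, 21.9 and 23.0 FPKM in A4, A9 and A10. Ctrl unit A8 lay among the cKO units, while A1 and A2 lay below all of them. The means were 15.9 ± 5.61 and 20.8 ± 2.91 FPKM (SD, n = 3 each), with a log2 fold change of 0.41 (SE 0.24, 95% interval -0.16 to 0.98, limma adjusted p = 0.781). With 1 unit left out it ran from 0.28 (without A2) to 0.67 (without A8, limma adjusted p = 0.167). The summed level of 10 immediate-early genes, which respond to stimulation of cells and to dissociation, split the units in the same way. It was 860 and 990 FPKM in A1 and A2 against 176 to 436 FPKM in the other 4. So did the oligodendrocyte sum (2152 and 2339 against 310 to 1083 FPKM) and the ependymal sum (229 and 202 against 50.8 to 149 FPKM). The precursor and neuronal sums were also highest, and the astrocyte sum lowest, in A1 and A2. The part of these in the Adora2b values was not tested.

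Adora1 was 8.38, 13.9 and 13.9 FPKM in A1, A2 and A8, and 8.01, 9.90 and 11.2 FPKM in A4, A9 and A10. Here A1 lay among the cKO units and A2 and A8 lay above all of them. The means were 12.1 ± 3.18 and 9.70 ± 1.60 FPKM (SD, n = 3 each), with a log2 fold change of -0.26 (SE 0.23, 95% interval -0.80 to 0.28, limma adjusted p = 0.875). With 1 unit left out it ran from -0.49 (without A1) to -0.15 (without A4), with -0.15 also without A2 and without A8. In the deposited coordinates 1162 bases of the Adora1 exons (20.1%) are shared with Mybph on the other strand, which had means of 3.74 ± 1.21 (Ctrl) and 4.83 ± 1.26 FPKM (cKO; SD, n = 3 each).

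The ratio of the Adora2b to the Adora1 level was examined after these values had been seen. It was 1.52, 0.901 and 1.61 in A1, A2 and A8, and 2.19, 2.23 and 2.06 in A4, A9 and A10. All 3 cKO units lay above all 3 Ctrl units (1.34 ± 0.388 against 2.16 ± 0.0881, SD, n = 3 each; exact permutation p = 0.1, two-sided), although each gene on its own overlapped between the groups. As the ratio was picked from these values, the separation is a description only.

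**Figure D4:**
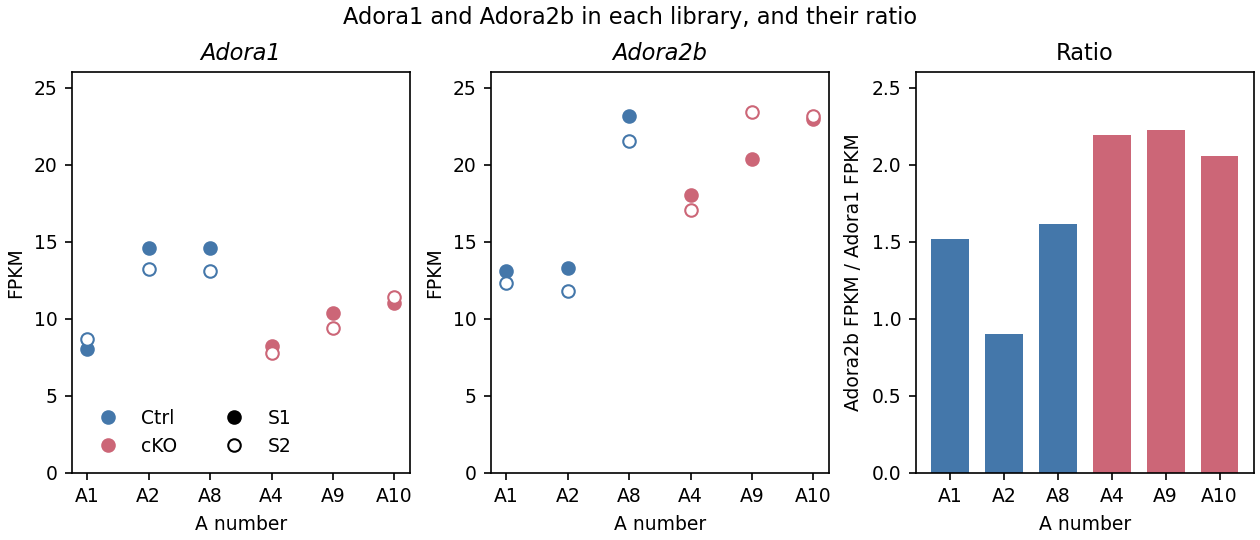
Adora1 and Adora2b levels (FPKM) in each library by A number, with S1 filled and S2 open, and at right the Adora2b to Adora1 ratio of each unit as bars from 0. The 3 red cKO bars stand at 2.06 to 2.23 and the 3 blue Ctrl bars at 0.901 to 1.61.

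P2rx7 (ENSMUSG00000029468, chromosome 5, 122781974 to 122829495, plus strand) encodes a channel opened by high concentrations of ATP and known for its role in inflammasome activation. Its level was 5.75, 7.61 and 6.07 FPKM in A1, A2 and A8, and 6.66, 4.51 and 5.67 FPKM in A4, A9 and A10. The groups overlapped, with A2 the highest and A9 the lowest of the 6. The log2 fold change was -0.18 (SE 0.19, 95% interval -0.63 to 0.27, limma adjusted p = 0.900), and ran from -0.29 (without A4) to -0.06 (without A9) with 1 unit left out. The miRNA gene Mir8115 shares 119 exon bases (1.99%) with P2rx7, and had means of 3.21 ± 2.17 (Ctrl) and 6.31 ± 4.26 FPKM (cKO; SD, n = 3 each). P2rx4 (ENSMUSG00000029470, chromosome 5, 122845607 to 122867801, plus strand), whose channel responds to lower ATP concentrations, starts 16111 bases beyond the end of P2rx7 on chromosome 5. It was 2.75, 1.02 and 3.24 FPKM in A1, A2 and A8, and 2.32, 1.74 and 2.04 FPKM in A4, A9 and A10. All 3 cKO units lay inside the Ctrl range, which was set by A2 at one end and A8 at the other. The log2 fold change was -0.07 (SE 0.33, 95% interval -0.86 to 0.71, limma adjusted p = 0.984), and it changed sign without A1 (0.05) or A8 (0.14).

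Entpd2 (ENSMUSG00000015085, chromosome 2, 25285886 to 25291333, plus strand) encodes an ectonucleotidase that cuts ATP to ADP at the cell surface, and it was the most abundant of the 10 genes in every unit. Its level was 25.96, 27.6 and 27.0 FPKM in A1, A2 and A8, and 32.1, 36.0 and 33.8 FPKM in A4, A9 and A10. The 6 Ctrl libraries ran from 25.8 to 28.7 FPKM and the 6 cKO libraries from 31.8 to 36.8 FPKM, with no overlap and a narrow spread in both groups. The means were 26.8 ± 0.807 and 34.0 ± 1.93 FPKM (SD, n = 3 each), a ratio of 1.27. The log2 fold change was 0.33 (SE 0.11), with a limma unadjusted p of 0.0175 and adjusted p of 0.510, and the exact permutation p was 0.1.

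The Entpd2 difference was set beside the overall astrocyte signal, since the mean log2 level of the 12 astrocyte markers was higher in cKO by 0.21, with summed levels that overlapped between groups. After libraries were scaled to the astrocyte markers, an alternative chosen after seeing the data, the median of all genes moved to -0.18 and the Entpd2 log2 fold change was 0.13, or 0.30 above that median, and its units overlapped. P2ry12 was 1.11 under that scaling and its units did not overlap. The neighbouring gene Npdc1 shares 612 bases (28.8%) of the Entpd2 exons on the same strand, and it had means of 16.0 ± 3.39 (Ctrl) and 15.9 ± 0.442 FPKM (cKO; SD, n = 3 each; log2 fold change 0.01, limma adjusted p = 0.997). How the counting assigned reads in the shared bases is not given in the sources used here. Recovered Entpd2 counts were whole in 5 of the 12 libraries, and others held fractions, such as 1729.5 reads in A1 S2. Adora1 and P2rx7, which also share exon bases, had whole counts in 5 libraries each, and P2ry1 in 10. P2rx4, for which no overlapping gene was found, had whole counts in 11, with 481.5 reads in A8 S1. What produced the fractions was not tested.

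Nt5e (ENSMUSG00000032420, chromosome 9, 88209250 to 88254145, plus strand), which encodes the ecto-5′-nucleotidase that forms adenosine from AMP, was the least abundant of the 10 and stayed below the test's minimum level. It was 0.474, 0.371 and 0.187 FPKM in A1, A2 and A8, and 0.318, 0.247 and 0.269 FPKM in A4, A9 and A10, from 32 to 120 reads per library. All 3 cKO units lay inside the Ctrl range (exact permutation p = 0.6, two-sided, n = 3 each). The difference between the means, 0.344 ± 0.145 FPKM in Ctrl against 0.278 ± 0.0363 FPKM in cKO (SD), was smaller than the SD in Ctrl.

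Adk (ENSMUSG00000039197, chromosome 14, 21102642 to 21498637, plus strand), which encodes the kinase that turns adenosine back into AMP, was 14.5, 15.9 and 20.5 FPKM in A1, A2 and A8, and 19.7, 23.4 and 20.3 FPKM in A4, A9 and A10. A8 lay between the cKO units A10 and A9, and A1 and A2 lay below all of cKO. The means were 17.0 ± 3.15 and 21.1 ± 1.98 FPKM (SD, n = 3 each), with a log2 fold change of 0.31 (SE 0.16, 95% interval -0.07 to 0.69, limma adjusted p = 0.740). With 1 unit left out it ran from 0.21 (without A1) to 0.44 (without A8, limma adjusted p = 0.231). A1 and A2 were also the units set apart by the immediate-early and other marker sums given for Adora2b. The span of the misc_RNA gene Gm55136 meets that of Adk with 0 shared exon bases. With 2285 to 5979 reads, Adk was the most deeply covered of the 10 genes, and its S1 and S2 libraries differed by at most 0.07 on the log2 scale.

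Without A8, 5 of the 9 tested genes had all cKO units above all remaining Ctrl units (P2ry12, Entpd2, Adora2b, Adk and P2ry14), where 13.7% of all tested genes did with these 3 units against 2. None passed the adjusted threshold in that fit. The largest gap between S1 and S2 over the 10 genes was 0.22 on the log2 scale, for P2ry1. In the comparison of S2 with S1, 0 of the 9 tested genes passed the limma adjusted threshold, where 1.39% of all genes did.

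The wider pathway was described with 66 other genes in 7 roles, of which 65 were found and 31 were tested. Again 0 passed the limma adjusted threshold (0% over all genes). At an unadjusted p under 0.05 in limma, 0 were higher and 2 lower in cKO, Adora2a and Lrrc8b (2.98% and 4.71% over all genes). Of the 31, 12 had a positive difference and 19 a negative one, and the median log2 fold change was -0.10.

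Adora2a, which encodes the other adenosine receptor that stimulates adenylyl cyclase, was the 1 tested gene among the remaining adenosine receptors. It was 2.13, 2.02 and 2.98 FPKM in A1, A2 and A8, and 1.01, 0.412 and 1.44 FPKM in A4, A9 and A10. All 3 cKO units lay below all 3 Ctrl units (log2 fold change -0.82, SE 0.32, limma unadjusted p = 0.0371, adjusted p = 0.618). The S1 and S2 libraries of a unit differed by up to 0.55 on the log2 scale for this low gene. The summed neuronal markers were also lower in all cKO units, as given above, though single markers other than Slc17a7 overlapped. Their part in the Adora2a values was not tested. Gpr17, a P2Y-like receptor known in oligodendrocyte precursors, was the 1 tested gene of the other P2Y receptors, at 2.16, 2.54 and 0.0135 FPKM in A1, A2 and A8 and 0.834, 0.464 and 0.353 FPKM in A4, A9 and A10. A8 was the lowest and the other 2 Ctrl units the highest (log2 fold change -0.55, limma adjusted p = 0.899; -1.12 without A8, -0.30 without A1 and -0.22 without A2). P2rx6, which encodes a P2X subunit, averaged 2.82 ± 0.368 and 2.55 ± 1.07 FPKM (SD, n = 3 each; limma adjusted p = 0.958).

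Among the other ectonucleotidases 3 were tested, with 2 positive and 1 negative difference. Enpp2, which encodes autotaxin and is abundant in oligodendrocytes and choroid plexus, was 121, 121 and 57.2 FPKM in A1, A2 and A8, and 19.2, 26.2 and 105 FPKM in A4, A9 and A10. A10 lay with the Ctrl units and apart from the other 2 of cKO (log2 fold change -1.30, SE 0.63, limma adjusted p = 0.715; -0.83 without A4 and -2.03 without A10). Summed oligodendrocyte markers were 2152, 2339 and 1083 FPKM in A1, A2 and A8, and 310, 442 and 744 FPKM in A4, A9 and A10. A10 was thus the highest of cKO, but A8 had a higher marker sum than A10 and less Enpp2. The part of oligodendrocyte RNA in the Enpp2 values was not tested. Entpd1, which cuts both ATP and ADP, had means of 3.07 (Ctrl) and 3.37 FPKM (cKO).

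Inside the cell, 18 other genes of adenosine and nucleotide turnover were tested, 7 with a positive and 11 with a negative difference (median -0.06). Ahcyl1, which resembles the enzyme that splits S-adenosylhomocysteine and binds the IP3 receptor, was the most abundant at 133 ± 14.9 (Ctrl) and 132 ± 6.70 FPKM (cKO; SD, n = 3 each; log2 fold change -0.01, limma adjusted p = 0.995). Ahcy, the enzyme that releases adenosine from S-adenosylhomocysteine, was 3.02, 2.55 and 0.805 FPKM in A1, A2 and A8, and 3.64, 2.99 and 3.68 FPKM in A4, A9 and A10. Only A8 lay far from the other units (log2 fold change 0.58, limma adjusted p = 0.772; 0.23 without A8). The nucleotidase gene Nt5c3 (log2 fold change 0.31) and the AMP deaminase gene Ampd3 (0.20) had limma adjusted p of 0.803 and 0.855.

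Of the nucleoside transporters 2 were tested, and both were negative; Slc29a3, a transporter of lysosomal membranes, had a log2 fold change of -0.14 (limma adjusted p = 0.951). Of the genes for ATP release 5 were tested, 3 positive and 2 negative. Lrrc8a, the obligate subunit of volume-regulated anion channels, averaged 21.2 ± 2.52 and 23.1 ± 2.58 FPKM (SD, n = 3 each; limma adjusted p = 0.917). Its partner subunit Lrrc8b was 18.4, 14.3 and 6.38 FPKM in A1, A2 and A8, and 5.61, 5.30 and 7.76 FPKM in A4, A9 and A10. A1 and A2 were high and A8 lay among the cKO units (log2 fold change -0.86, SE 0.36, limma unadjusted p = 0.0489, adjusted p = 0.644; -0.57 without A1). The immediate-early and other marker sums given for Adora2b also set A1 and A2 apart. Their part in the Lrrc8b values was not tested.

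**Figure D5:**
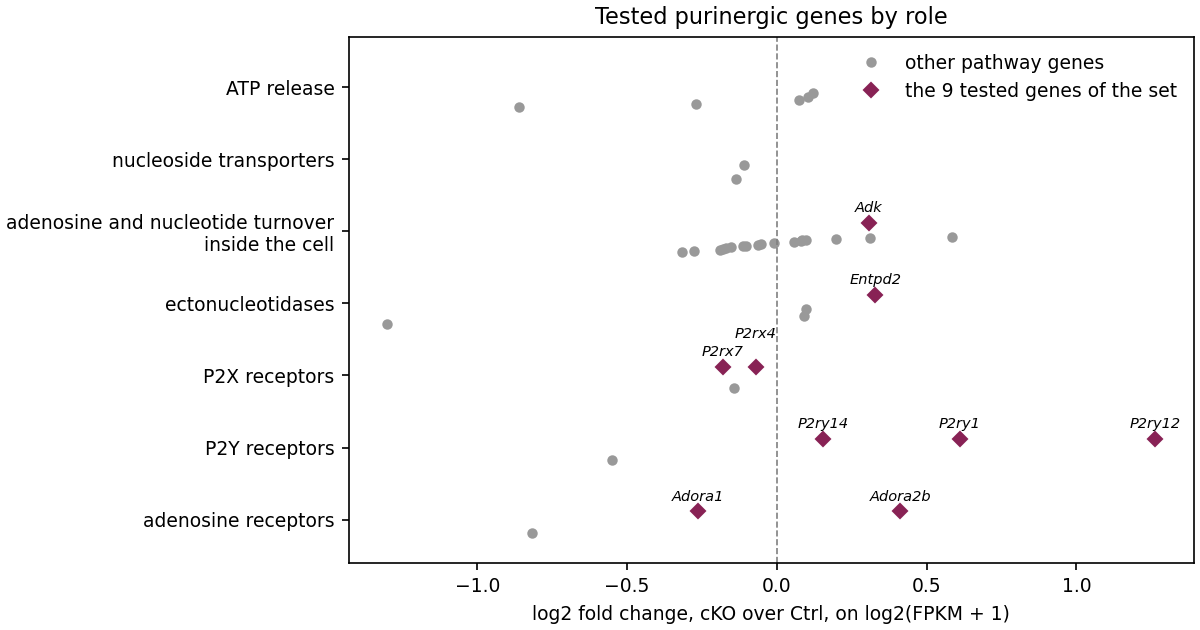
Log2 fold change of cKO over Ctrl on log2(FPKM + 1) for the 9 tested genes of the set (diamonds, named) and the 31 other tested pathway genes (grey points) by role; vertical offsets within a role carry no value. P2ry12 lies farthest to the right at 1.26 and Enpp2 farthest to the left at -1.30.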

How the data were processed

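The deposited table holds FPKM (fragments scaled to gene length and library total) as computed by the authors for 12 libraries; FPKM times length in kilobases summed to 1000000 in each. FastQC, STAR, featureCounts and DESeq2, and the builds mm10 and GRCm38, are named without roles per the submitters' processing notes. Gene coordinates in the table differ from GRCm38 annotation, so they are given only as deposited, and the build is not settled; promoter sequences and their coordinates are RefSeq's, in GRCm38.p6, matched by symbol for 10 of 10 genes. Rows sharing a symbol were summed, leaving 56791 names. Depth was recovered from the steps between low deposited FPKM values (whole reads for 85.7% to 89.5% of values, tolerance 0.02). Of the small whole counts, 72.55% to 80.42% per library were even, so a pair may often count as 2 reads. Without molecular identifiers PCR copies count as reads.

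S1 and S2 were averaged on log2(FPKM + 1). Genes with a mean of at least 1 FPKM, 17540 in all, entered a limma 3.58.1 comparison under R 4.3.3 (variance trend, two-sided, Benjamini-Hochberg adjustment over all genes, threshold 0.05), and single values by exact permutation of the 6 units (20 arrangements, two-sided) (Python 3.11.15). S2 and S1 were compared within A numbers. The fits were tested on simulated data. Replicate numbers stand for S1 and S2, so the design pairs no unit across genotypes; S2 minus S1 correlated at r = 0.133 to 0.19 between units, and models of all 12 libraries fitted A numbers as random effects.

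The genes, lists and tests were chosen with earlier results of these data known. Named beside the 10 genes are Tnfrsf1b, the most abundant other gene of each pathway role and genes overlapping the 10. Also named are the 3 pathway genes with the smallest unadjusted p in each direction and the first 2 markers of a list. Ctss, C1qa, Entpd1, Olig1, Sox10, Slc17a7 and the results flagged below were named after their values were seen. Alternatives were another pseudocount (0.1), no filter, upper-quartile scaling, each unit left out, S1 or S2 alone, the random-effect models, the log2 of the mean, eBayes without trend and, chosen after seeing the data, scaling to the astrocyte markers. A marker gene is not reported here.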

Additional observations from a re-analysis of the deposited data

Results flagged for a closer look

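A group of 6 purinergic genes below the minimum level of 1 FPKM were at or below 3 reads in every Ctrl library and above 3 reads in some libraries labelled cKO. P2ry10b, which encodes a P2Y-family receptor, had over 3 reads in 4 of the 6 cKO libraries, with at most 26 reads. P2rx1, which encodes a P2X channel, did so in 3 libraries (at most 32 reads), and Nt5c1b, which encodes a cytosolic nucleotidase, in 2 libraries (at most 24 reads, with up to 2 reads in Ctrl). Panx3, a pannexin, did so in 2 libraries (at most 8 reads), Calhm1, a calcium homeostasis modulator channel, in 1 library (6 reads), and Lrrc8e, a subunit of volume-regulated anion channels, in 5 libraries (at most 54 reads, and 2 reads in the sixth). The reverse, at or below 3 reads in every cKO library and above 3 in some Ctrl library, held for 4 genes (P2ry4, P2rx2, Entpd8 and Enpp3) of the same 35 below the filter. Over all 38874 genes below it, many at 0 throughout, the shares were 8.42% and 5.24%. By unit, P2ry10b was above 0 in A4 and A10 of cKO, Panx3 in A4, Nt5c1b in A9 and Calhm1 in A10. P2rx1 and Lrrc8e were above 0 in all 3 cKO units. S1 and S2 of a unit were counted as 1 elsewhere, so the libraries here are not replicates. Libraries of A4 had the most genes above 0 (26211 and 26668) and those of A8 the fewest (21342 and 21572). The part of this in the counts was not tested. The genes lay below the filter of the main test, so these counts are a description.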

How the results depend on the processing

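The count of the 10 genes past the limma adjusted threshold was 0 in every alternative, and the lowest adjusted p was 0.106 (P2ry12, random-effect model). Of 156 recomputed fold changes of the 10 genes, 153 kept their direction; P2rx4 turned to 0.048 without A1 and 0.14 without A8, and Nt5e to 0.0030 without A1. Of 176 for the named pathway genes, 6 turned: Ahcyl1 to 0.070 with upper-quartile scaling, 0.073 without A8 and 0.025 without A10, Slc29a3 to 0.043 without A8 and 0.036 without A4, and Lrrc8a to -0.078 when scaled to the astrocyte markers. With 1 unit left out, P2rx4 ranged from -0.40 to 0.14, Nt5e from -0.15 to 0.0030, Ahcyl1 from -0.086 to 0.073 and Slc29a3 from -0.31 to 0.043. Over all genes the number passing was 0 with units as samples, 112 when A numbers were a random effect and 80 with the replicate block added; leaving out 1 unit gave 0 to 1 (1 without A1). The random-effect models read 12 libraries of 6 units, and neither called any of the 10 genes. Tested genes with all cKO units above all Ctrl units numbered 2, or 2 to 5 with a unit left out (5 without A8), 3 with upper-quartile scaling and 1 when scaled to the astrocyte markers. Over all genes the share was 5.76%, and 9.16% to 13.7%, 8.42% and 2.21% in those settings; the share with all cKO units below went from 7.22% to 5.3% with upper-quartile scaling and 14.9% with astrocyte scaling. Genes differing between S2 and S1 numbered 243, or 152 with no filter and 152 to 180 with a unit left out. P2ry12 ranged from 0.97 to 1.60 and Entpd2 from 0.13 to 0.41 over the alternatives. With 3 units a genotype, intervals are wide, and for P2ry1, P2ry12 and Nt5e libraries with under 100 reads limit precision.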

Other observations

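Of 7 ratios within a unit that could be formed, picked after the values were seen, 3 did not overlap between the groups, among them Adora2b over Adora1; all are descriptions. Entpd2 over Aldh1l1, an astrocyte marker that encodes a folate enzyme, was 0.675, 0.662 and 0.653 in A1, A2 and A8, and 0.703, 0.754 and 0.709 in A4, A9 and A10, so the cKO units lay above the Ctrl units by a small margin (exact permutation p = 0.1, two-sided, n = 3 each). Adk over Aldh1l1 was 0.378, 0.383 and 0.497 in A1, A2 and A8, and 0.431, 0.490 and 0.426 in A4, A9 and A10, and the groups overlapped (exact permutation p = 0.6). P2ry12 over P2ry14 was 0.985, 2.17 and 2.87 in Ctrl, and 6.25, 4.91 and 3.44 in cKO, again without overlap (exact permutation p = 0.1). P2rx7 over P2rx4, Entpd2 over Nt5e and P2ry1 over P2ry14 overlapped (exact permutation p = 1, 0.3 and 0.4).

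P2ry13 and Enpp1 were named after their values were seen. P2ry13, another ADP receptor gene known in microglia and a chromosome 3 neighbour of P2ry12, stayed below the minimum level. It was 0.647, 0.0228 and 0.410 FPKM in A1, A2 and A8, and 1.26, 0.291 and 0.943 FPKM in A4, A9 and A10. A9 of cKO lay among the Ctrl units, unlike for P2ry12. Enpp1, an ectonucleotidase gene also below the filter, had means of 1.17 ± 0.134 (Ctrl) and 0.515 ± 0.335 FPKM (cKO; SD, n = 3 each), and the units did not overlap. Of the 35 purinergic genes below the filter, 1 (Enpp1) had all cKO units below all Ctrl units and 2 had them above, where 0.857% and 1.54% of all 38874 genes below it did, a number that includes genes at 0 in every library.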
